A study of Mus musculus with 6 samples.

Results

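The natriuretic peptide system was examined in embryonic hearts with and without PKM1, the isoform of pyruvate kinase that predominates in heart muscle. The members were chosen by gene symbol as the 3 peptide genes (*Nppa*, *Nppb*, *Nppc*), the 3 receptor genes (*Npr1*, *Npr2*, *Npr3*) and 2 genes for processing proteases (*Corin*, *Furin*). Of these 8 genes, 7 had a row among the 13809 genes of the count table and all 7 passed the filter on low counts, while *Nppc* was not analysed here. All hearts came from mouse embryos at embryonic day 18.5 (E18.5). The WT group held 3 libraries from wild-type embryos and the KO group held 3 libraries from pkm1-knockout embryos, which carry a homozygous CRISPR/Cas9 deletion in the *Pkm1*-specific exon in every tissue. The mutant line was founded by injecting zygotes of BDF1 mice, a hybrid of C57BL/6J and DBA/2. The number of founders behind the sequenced embryos was not given in the sources used here. The labels call the tissue heart, the study's text calls it ventricular, and total RNA was depleted of ribosomal RNA before sequencing.

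Atrial natriuretic peptide (from *Nppa*) and B-type natriuretic peptide (from *Nppb*) are hormones that heart muscle cells release when they are stretched, and both lower blood volume and pressure. In the fetus both genes are transcribed in atria and in the trabecular layer of the ventricles, and *Nppa* falls in ventricular muscle after birth unless the heart is overloaded. The peptides are made as precursors that *Corin* and *Furin* cut, they act through receptors that make cyclic GMP, and they are removed by a clearance receptor and by peptidases.

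The smallest and largest library totals were 15597756 and 19875546 counts in WT and 15567624 and 18577404 counts in KO. Values are given as counts scaled to library size (CPM) by the TMM method, and the 7 genes held between 447 and 11275 counts in any library, so none was near the limit of detection of 3 counts. The columns give the genotype but no replicate number, and libraries are called a, b and c in column order. The targeted gene *Pkm* was at 1294 to 1366 CPM in WT and 530 to 549 CPM in KO. These counts are per gene symbol and do not separate PKM1 from PKM2, the other isoform. The study's discussion describes PKM2 as also lowered in this mutant, maybe secondarily. It allows that this contributes to the phenotype. Ventricular transcripts were abundant in all 6 libraries, with *Myl2*, the ventricular regulatory light chain, at 4481 to 5576 CPM. WT c stood apart from WT a and WT b, with a chi-square per degree of freedom of 3.76 and 3.24 against 1.56 between WT a and WT b and at most 1.88 among KO libraries. The groups also differed in sex-linked transcripts: *Xist* was at 4.80 to 5.79 CPM in WT and at 2237 to 2332 CPM in KO, while the 4 Y-linked genes of the list, among them *Ddx3y*, had 0 counts in every KO library. Genotype and sex therefore cannot be told apart in any result given here.

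The 2 cardiac peptide genes lie next to each other on chromosome 4 of GRCm38, both on the plus strand, with *Nppb* (ENSMUSG00000029019) from 147985788 to 147987205 and *Nppa* (ENSMUSG00000041616) from 148000722 to 148002079. The gap between them is 13.5 kb. Because their transcripts moved in opposite directions, as described next, the 250 bases before each RefSeq start (GRCm38.p6, plus strand) are shown for comparison. Capitals mark matches on either strand. The letters searched were TATAAA for the TATA box, AGATAA as well as TGATAA for GATA factors, TNAAGTG for NKX2-5 and AGGTGTNA for T-box factors. The *Nppa* sequence spans chr4:148000472-148000721 and the *Nppb* sequence spans chr4:147985650-147985899.
Nppa: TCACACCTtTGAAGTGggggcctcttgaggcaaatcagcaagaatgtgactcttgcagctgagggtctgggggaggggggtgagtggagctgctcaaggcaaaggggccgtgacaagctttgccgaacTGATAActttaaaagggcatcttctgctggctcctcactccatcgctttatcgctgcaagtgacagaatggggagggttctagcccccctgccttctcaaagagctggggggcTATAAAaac
Nppb: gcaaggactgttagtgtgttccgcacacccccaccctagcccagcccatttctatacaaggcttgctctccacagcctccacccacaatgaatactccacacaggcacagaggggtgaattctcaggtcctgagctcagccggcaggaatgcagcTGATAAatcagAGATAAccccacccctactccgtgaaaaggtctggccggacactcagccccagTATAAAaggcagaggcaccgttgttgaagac

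The *Nppa* sequence held a T-box match and an NKX2-5 match separated by 1 base at its far end, and 1 TGATAA. The *Nppb* sequence held TGATAA and AGATAA close together and had neither a T-box nor an NKX2-5 match in this window. No matches overlapped. Among 32851 RefSeq promoter windows of 300 bases (250 before and 50 after the start, chromosome 18 left out), TATAAA was present in 13.6%, AGATAA in 11.2%, TGATAA in 9.05%, TNAAGTG in 11.5% and AGGTGTNA in 3.03%. CCAAT, the box bound by NFY, was found in 37.4% of all windows, in neither cardiac peptide window, and in a window of 4 of the 7 genes (*Npr1*, *Npr3*, *Corin* and *Furin*). The SRF motif (CArG box) was searched as CCWWWWWWGG, with W for A or T and no mismatch allowed. This exact form was present in 1.63% of all windows and in neither cardiac peptide window. Sites that differ from these letters were not searched for, so an SRF site of another form is not excluded. The GENCODE start of *Nppb* lies 112 bases upstream of the RefSeq start used for its window, while the 2 annotations share the *Nppa* start. Relative to the RefSeq start, TATAAA began at -9 in the *Nppa* window and at -31 in the *Nppb* window. Neither annotated start was tested.

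*Nppa* rose and *Nppb* fell in KO hearts. *Nppa* transcripts stood at 373, 377 and 367 CPM in WT a, b and c and at 587, 598 and 605 CPM in KO a, b and c. Every KO library lay above every WT library, and the lowest KO library was 1.56 times the highest WT library. The WT mean was 372 ± 4.91 CPM and the KO mean 597 ± 8.94 CPM (SD, n = 3 each). The change was 0.68 on the log2 scale with a standard error of 0.0275 (adjusted p = 6.97e-17 by the quasi-likelihood F test of edgeR). *Nppb* transcripts stood at 322, 323 and 309 CPM in WT a, b and c and at 183, 184 and 182 CPM in KO a, b and c. Every KO library lay below every WT library, by a factor of at least 1.68. The WT mean was 318 ± 7.86 CPM and the KO mean 183 ± 1.15 CPM (SD, n = 3 each), which gave a change of -0.80 on the log2 scale with a standard error of 0.0321 (adjusted p = 6.63e-17, edgeR). Both passed a change of 1.5-fold as well, as did 6.19% of all genes tested (2.99% higher and 3.20% lower). By unadjusted p, *Nppb* ranked 29 and *Nppa* 30 among the 13804 genes tested.

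**Figure D1:**
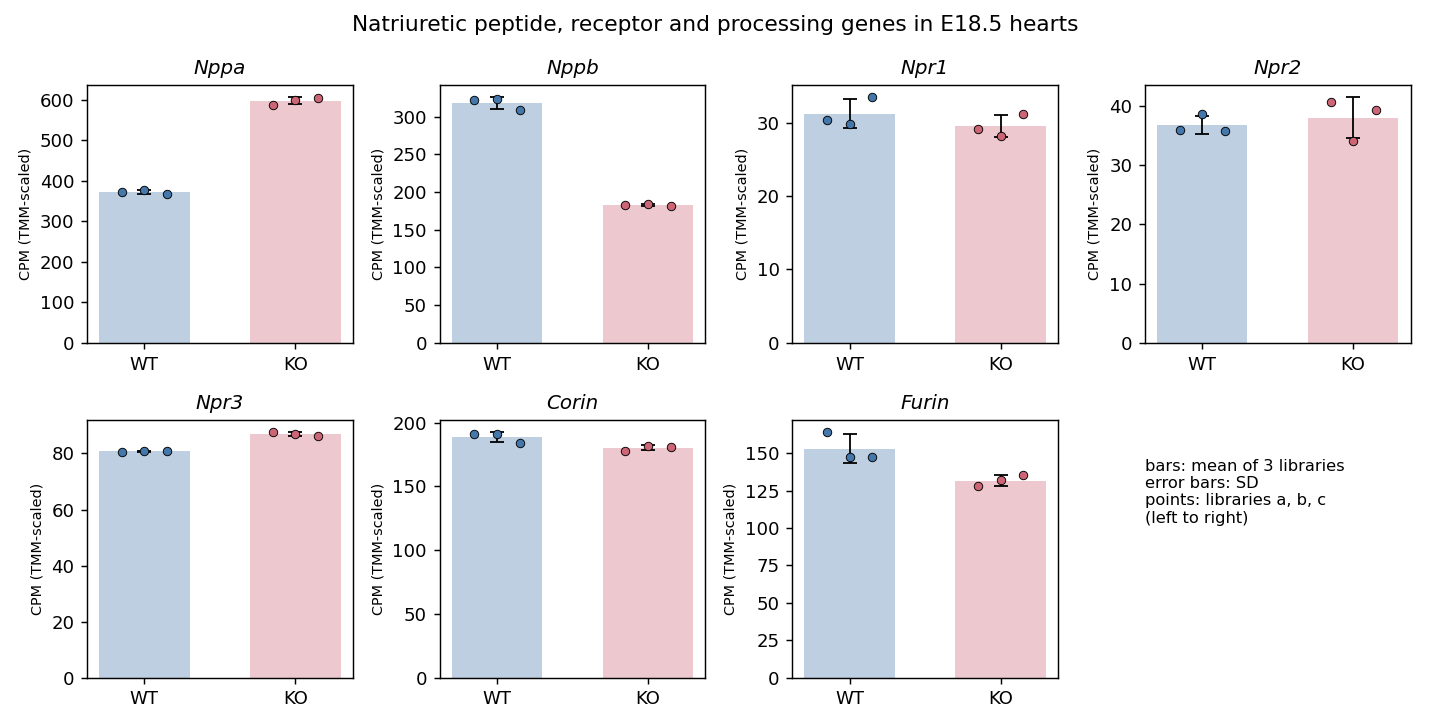
TMM-scaled CPM (vertical axes, from 0) of the 7 genes in WT and KO hearts, with points for libraries a, b and c from left to right, bars for the mean and error bars for the SD (n = 3). The KO points of *Nppa* lie between 587 and 605 CPM, above the WT points, and those of *Nppb* lie between 182 and 184 CPM, below the WT points.

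Per kilobase of annotated exon, a rough scale for setting levels of different genes side by side, *Nppa* and *Nppb* were at 430 ± 5.68 and 407 ± 10.1 CPM per kb in WT hearts. In KO hearts the levels were 690 ± 10.3 and 234 ± 1.48 CPM per kb (SD, n = 3 each). The ratio of *Nppa* to *Nppb* counts, which needs no scaling between libraries, was 1.16, 1.17 and 1.19 in WT a, b and c and 3.21, 3.25 and 3.33 in KO a, b and c. The genotypes did not overlap, and the mean log2 ratio was 1.48 higher in KO, a 2.79-fold shift. An exact permutation test gave a two-sided p of 0.1, the smallest that 3 libraries against 3 allow. The sum of both transcripts was 676 to 700 CPM in WT and 770 to 787 CPM in KO, so the balance between them shifted more than their total.

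Of the 7 genes, 3 passed an adjusted p under 0.05 (edgeR), with 1 higher and 2 lower in KO. Among all genes tested, 30.3% passed in either direction, 14.6% higher and 15.7% lower. The count of called members is too small to be set apart from that background. The WT and KO libraries did not overlap in CPM for 5 of the 7, against 42.4% of all genes. The median log2 fold change was -0.07 over the 7 genes and 0.0017 over all genes.

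**Figure D2:**
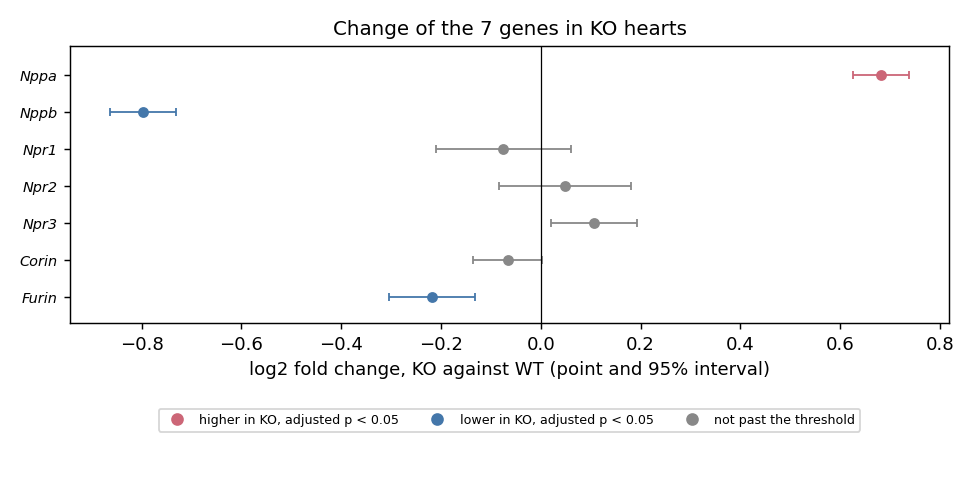
Log2 fold change of KO against WT (horizontal axis) for the 7 genes, with the 95% interval from the edgeR fit and colour for direction past an adjusted p of 0.05. *Nppa* (0.68) and *Nppb* (-0.80) lie far from 0 on opposite sides, *Furin* lies at -0.22, and the other 4 genes lie between -0.07 and 0.11.

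*Furin*, on chromosome 7, encodes the proprotein convertase that cuts the B-type precursor among many other substrates, and it fell in KO hearts. It stood at 164, 147 and 148 CPM in WT a, b and c and at 128, 132 and 135 CPM in KO a, b and c. WT a was the highest library and the groups did not overlap, although the nearest WT and KO libraries differed only by a factor of 1.09. The KO mean was 0.860 of the WT mean, -0.22 on the log2 scale with a standard error of 0.0418 (adjusted p = 2.44e-04, edgeR). *Corin*, on chromosome 5, encodes the membrane protease that activates the atrial peptide. It stood at 191, 191 and 184 CPM in WT and at 178, 182 and 181 CPM in KO. The groups did not overlap but differed by little, with a log2 fold change of -0.07 (95% interval -0.136 to 0.0032) and an adjusted p of 0.142 (edgeR). Without WT c the log2 fold change was -0.09 and the gene passed, with an adjusted p of 0.03 (edgeR, 0.03 to 0.326 over all alternatives tried).

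None of the 3 receptor genes passed the threshold. *Npr3*, on chromosome 15, encodes the clearance receptor, which takes up the peptides without making cyclic GMP and is also a known marker of the endocardium. It stood at 80.4, 80.9 and 80.8 CPM in WT and at 87.6, 87.0 and 86.1 CPM in KO. The groups did not overlap, with the nearest WT and KO libraries a factor of 1.06 apart. *Npr3* held 1230 to 1654 counts per library, where counting error alone exceeds the spread within each genotype. The closeness of the libraries is therefore no sign of precision. The log2 fold change was 0.11 (95% interval 0.0204 to 0.193) with an adjusted p of 0.0554 (edgeR), just outside the threshold. With edgeR's exact test, or with at least 10 counts required in every library, the adjusted p of *Npr3* was 0.0387 or 0.04996 (0.0387 to 0.147 over all alternatives tried).

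*Npr1*, on chromosome 3, encodes the guanylate cyclase receptor for the atrial and B-type peptides. It stood at 30.3, 29.8 and 33.4 CPM in WT and at 29.1, 28.2 and 31.1 CPM in KO. The groups overlapped, and the log2 fold change was -0.07 (95% interval -0.211 to 0.0609, adjusted p = 0.422, edgeR). It was -0.03 without WT c and -0.12 without KO c, and the gene did not pass in either fit. *Npr2*, on chromosome 4, encodes the guanylate cyclase receptor for the C-type peptide. It stood at 36.0, 38.6 and 35.8 CPM in WT and at 40.6, 34.1 and 39.3 CPM in KO. KO b was the lowest and KO a the highest of the 6 libraries, and the log2 fold change was 0.05 (95% interval -0.0846 to 0.182, adjusted p = 0.614, edgeR). Without KO a its log2 fold change was -0.0016. Changes of these 2 receptors beyond their intervals were not detected at this depth, and smaller ones could not be resolved.

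Per kilobase of exon, *Npr3*, *Npr2* and *Npr1* were at 8.60 ± 0.0306, 7.88 ± 0.334 and 6.52 ± 0.413 CPM per kb in WT hearts (SD, n = 3 each). All 3 lay well below *Corin* (34.9 ± 0.753) and *Furin* (16.7 ± 1.05), and these in turn below the peptide genes. In KO hearts the levels of *Npr3*, *Npr2* and *Npr1* were 9.25 ± 0.0828, 8.14 ± 0.735 and 6.16 ± 0.312 CPM per kb. In both genotypes the SD of *Npr3* was smaller than counting error, as described above. The order of the 7 genes, from *Nppa*, *Nppb*, *Corin* and *Furin* down to *Npr3*, *Npr2* and *Npr1*, was the same in both genotypes. The 3 libraries of each gene did not overlap with those of its neighbour in that order in either genotype. The ratio of *Npr3* to *Npr1* counts, clearance against signalling receptor, was 2.65, 2.72 and 2.42 in WT a, b and c and 3.01, 3.08 and 2.77 in KO a, b and c. The difference in mean log2 ratio was 0.19, with a two-sided exact permutation p of 0.1, again the smallest possible.

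The genes around the receptors and peptides were taken from lists chosen with earlier results of these data known. Counts and medians over a list are therefore descriptions, not independent tests. Of 7 further proteases that mature or degrade the peptides or are related to *Furin*, 1 was higher, 2 were lower and 4 did not pass an adjusted p under 0.05 (edgeR). The shares over all genes tested were 14.6% higher and 15.7% lower. *Mme*, which encodes neprilysin, the main peptidase that degrades natriuretic peptides, was at 4.05, 4.13 and 4.07 CPM in WT and 7.05, 5.30 and 5.31 CPM in KO. It rose by 0.53 on the log2 scale with a standard error of 0.151 (adjusted p = 0.00904, edgeR), and KO a was the highest library. *Pcsk6*, whose convertase activates corin, fell with a log2 fold change of -0.36 from 26.3 to 28.6 CPM in WT to 19.8 to 23.4 CPM in KO. *Ide*, the insulin-degrading enzyme, fell with -0.22. *Pcsk5*, *Pcsk7*, *Dpp4* and *Ece1* had log2 fold changes of 0.16, 0.01, 0.12 and -0.10 without a call. The osteocrin gene, for another ligand of the clearance receptor, was not analysed here.

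Among 15 tested genes for effectors of cyclic GMP and the phosphodiesterases that break it down, 7 were lower, 0 were higher and 8 did not pass (edgeR), where 15.7% and 14.6% of all genes were lower and higher. Without adjustment of the p, 1 gene was higher (*Mrvi1*, a substrate of the kinase, unadjusted p = 0.0346), and DESeq2 called 4 lower and 0 higher. The median log2 fold change of the list was -0.13. *Rgs2*, a brake on G protein signalling that the cyclic GMP-dependent kinase activates, changed most, from 27.1, 29.2 and 32.5 CPM in WT to 17.0, 17.2 and 14.97 CPM in KO. The difference was -0.85 on the log2 scale with a standard error of 0.0797 (adjusted p = 3.87e-09, edgeR). *Prkg1*, the kinase itself, fell with -0.16, and *Ppp1r12a*, the myosin phosphatase subunit it acts on, with -0.21. The phosphodiesterase genes *Pde1c*, *Pde3b*, *Pde2a* and *Pde3a* fell with -0.37, -0.22, -0.17 and -0.13. By DESeq2, *Prkg1*, *Pde2a* and *Pde3a* did not pass, with adjusted p of 0.0667, 0.0602 and 0.0668. *Pde5a* and *Pde9a*, which are selective for cyclic GMP, had log2 fold changes of -0.03 and -0.12 with adjusted p of 0.838 and 0.567 (edgeR). Of the 3 genes for soluble guanylate cyclase, the enzyme that answers to nitric oxide, *Gucy1b3* fell with -0.16 (adjusted p = 0.0295 by edgeR and 0.0869 by DESeq2), and *Gucy1a3* and *Gucy1a2* were at -0.01 and -0.02 without a call.

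**Figure D3:**
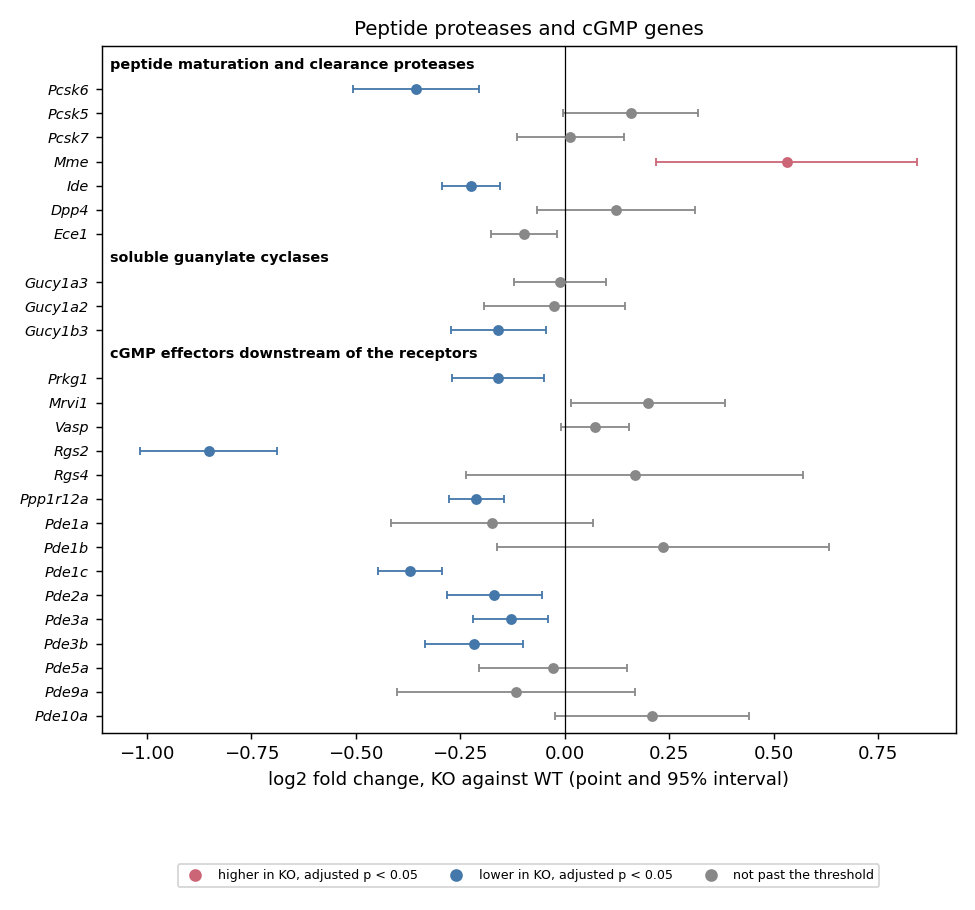
Log2 fold change of KO against WT (horizontal axis, 95% interval) for peptide proteases, soluble guanylate cyclase genes and cyclic GMP genes, with colour for direction past an adjusted p of 0.05. *Rgs2* (-0.85) lies farthest to the left and *Mme* (0.53) farthest to the right.

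Of 21 genes for transcription factors and cofactors known to act on *Nppa* or *Nppb*, 8 were lower, 1 was higher and 12 did not pass (edgeR), against the shares of 15.7% and 14.6% of all genes, with a median log2 fold change of -0.13. DESeq2 called 7 lower, without *Myocd* (adjusted p = 0.0573). *Hand2* fell from 92.8, 98.8 and 111 CPM in WT to 56.5, 59.7 and 53.7 CPM in KO, a log2 fold change of -0.83. *Hdac5*, a signal-responsive deacetylase that represses MEF2, fell with -0.63, and *Tbx3*, a T-box repressor of *Nppa* in the conduction system, fell with -0.58. *Gata6*, *Klf13*, *Mef2a*, *Tbx20* and *Myocd* fell with -0.32, -0.27, -0.15, -0.14 and -0.09. *Hey2*, a repressor found in the compact layer of the ventricle, rose with 0.33. The activators of both promoters, *Gata4*, *Nkx2-5* and *Tbx5*, had log2 fold changes of -0.08, -0.13 and -0.03 with adjusted p of 0.0893, 0.0597 and 0.77 (edgeR).

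Of the 9 genes often measured with the peptides as a hypertrophy programme, 2 were higher and 4 lower (edgeR), with a median log2 fold change of -0.01. For this and the next 2 lists, the shares over all genes tested were 14.6% higher and 15.7% lower. *Acta1*, skeletal actin, rose with 1.07, the direction of *Nppa*, and *Myh7*, the slow myosin heavy chain, rose with 0.05, a call that DESeq2 and edgeR's exact test did not give. *Ankrd1*, a stretch-responsive protein of the sarcomere, fell with -0.41, the direction of *Nppb*, as did *Xirp2* (-0.39), *Xirp1* (-0.27) and *Fhl1* (-0.14). Of the 8 trabecular and conduction markers reported here, 1 was lower (*Irx3*, -0.25) and 0 were higher (edgeR), with the same 2 counts from DESeq2. At an unadjusted p under 0.05, *Hcn4*, the pacemaker channel (-0.21), was also on the lower side and again 0 were higher. *Bmp10* and *Gja5* were at 0.02 and 0.00 (adjusted p = 0.904 and 0.966, edgeR). Of 3 compact-layer markers, *Hey2* rose, *Tbx20* fell and *Mycn* (0.12) was not called.

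Atrial transcripts were examined because *Nppa* is far more abundant in atria than in ventricles. Of 8 tested atrial markers, 3 were higher, 1 was lower and 4 did not pass (edgeR), where 14.6% of all genes were higher and 15.7% lower. Their summed level was 289 to 305 CPM in WT and 471 to 490 CPM in KO. Most of that rise came from *Myl4* alone, so the sum does not stand for the list as a whole. *Myl4*, the atrial essential light chain, went from 139, 138 and 149 CPM in WT to 313, 294 and 307 CPM in KO, a log2 fold change of 1.10. *Myl7*, the atrial regulatory light chain, went from 48.2, 41.9 and 48.9 to 79.4, 74.5 and 79.2 CPM, a log2 fold change of 0.75, and *Dkk3* rose with 0.46. *Kcna5*, an atrial potassium channel, fell with -0.85. *Nr2f2*, *Nr2f1*, *Stard10* and *Kcnj3* had log2 fold changes of 0.06, -0.23, -0.09 and -0.09 without a call, and none of the 8 markers was at 0. Sarcolipin was not analysed here. The part of atrial tissue in the *Nppa* result was not tested. Of 5 ventricular markers, 2 were higher (*Hey2*, 0.33, and *Myh7*, 0.05) and 2 lower (*Myl2*, -0.18, and *Myl3*, -0.10) by edgeR. *Irx4* (0.06) was not called. DESeq2 and edgeR's exact test called only 1 higher, without *Myh7*.

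**Figure D4:**
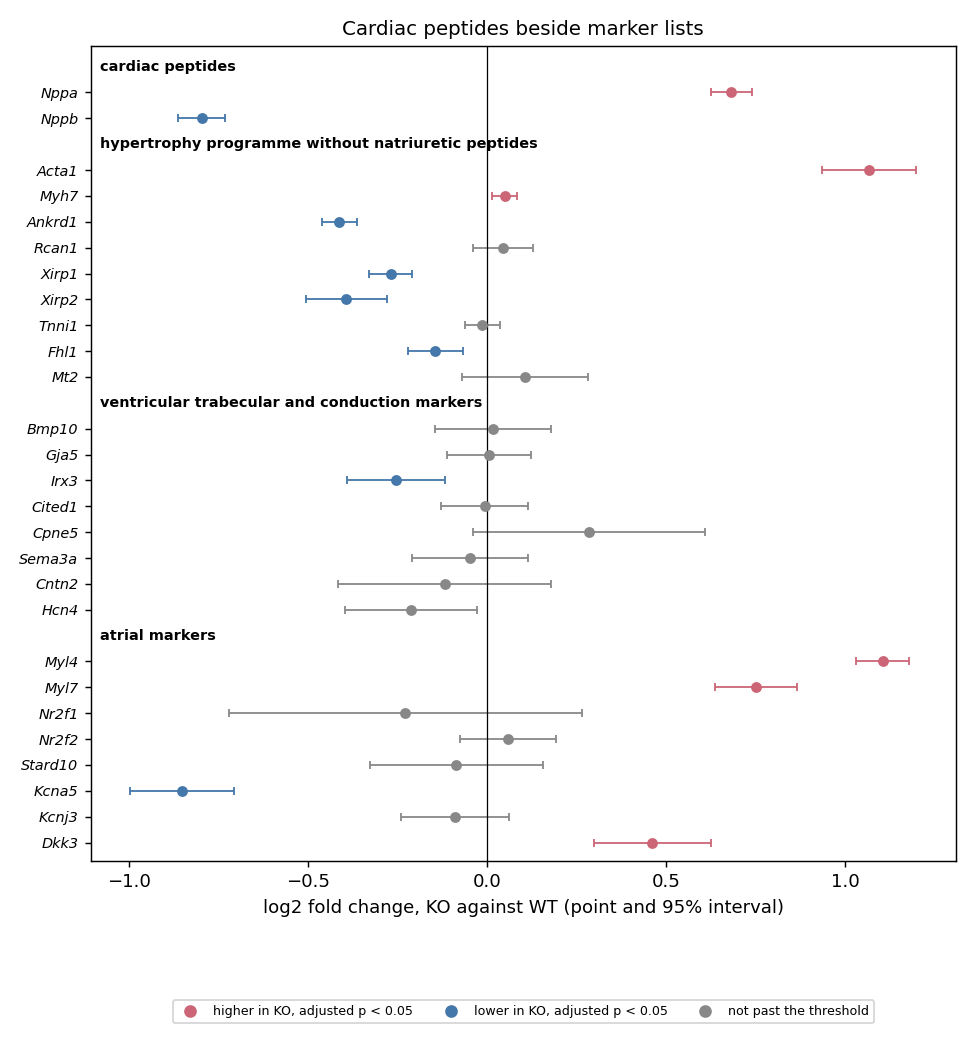
Log2 fold change of KO against WT (horizontal axis, 95% interval) of *Nppa* and *Nppb* beside hypertrophy genes, trabecular and conduction markers and atrial markers. *Acta1*, *Myl4* and *Myl7* lie on the side of *Nppa*, while *Ankrd1*, *Xirp2* and *Kcna5* lie on the side of *Nppb*.

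All 6 cardiomyocyte markers were lower in KO (edgeR, 4 with DESeq2), with a summed level of 104879 to 107410 CPM in WT and 96848 to 98017 CPM in KO. In bulk tissue fewer cells of a type and less RNA per cell cannot be told apart. *Ttn*, at 78696 to 79241 CPM in WT, made up most of that sum and changed least (-0.05), while *Myh6* changed most (-0.46). Sarcomere genes of the other lists did not all fall. *Myh7* was at 0.05 and *Tnni1* at -0.01, while *Myl2* and *Myl3* were at -0.18 and -0.10. The part of cardiomyocyte content in the *Nppa* and *Nppb* results was not tested. Around *Npr3*, 2 of 6 endocardial markers were higher (*Hapln1*, 0.87, and *Adgrg6*, 0.29). *Hapln1* was low and uneven, at 1.33, 1.99 and 0.788 CPM in WT and 2.28, 2.84 and 2.68 CPM in KO. The standard error of its log2 fold change was 0.258. *Nfatc1*, a defining factor of the endocardium, had a log2 fold change of -0.11 (adjusted p = 0.149, edgeR). The summed endocardial level was 287 to 308 CPM in WT and 291 to 302 CPM in KO. Of 7 endothelial markers, 4 were lower and 0 higher, and their sum was 1286 to 1312 CPM in WT and 1207 to 1225 CPM in KO. Of 7 fibroblast markers, 3 were lower and 0 higher, with sums of 3915 to 3958 and 3647 to 3720 CPM. In neither list was a gene higher at an unadjusted p under 0.05, and DESeq2 called 2 endothelial and 1 fibroblast marker lower. Of 7 smooth muscle and pericyte markers, 1 was higher and 2 were lower, with sums of 775 to 808 and 779 to 786 CPM. The part of these cells in the receptor values was not tested.

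The genes beside the *Nppb*–*Nppa* pair did not share 1 direction. Of the 11 other annotated genes within 100 kb that are reported here, 5 had a row, of which 2 were higher, 1 was lower and 2 did not pass (edgeR). Over all genes tested, 14.6% were higher and 15.7% lower. *Clcn6*, a chloride transporter gene 2.2 kb from *Nppa*, went from 28.4, 31.8 and 31.6 CPM in WT to 37.0, 32.1 and 39.1 CPM in KO, a log2 fold change of 0.24 (adjusted p = 0.0106, edgeR). *Plod1*, 49.0 kb from *Nppb* and encoding a collagen lysyl hydroxylase, rose with 0.33. *Agtrap*, whose product binds the angiotensin receptor, fell with -0.40 at a distance of 75.0 kb. *Mfn2* and *2510039O18Rik* had log2 fold changes of -0.04 and 0.11 without a call. None of these 5 neighbours changed as much as either peptide gene.

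**Figure D5:**
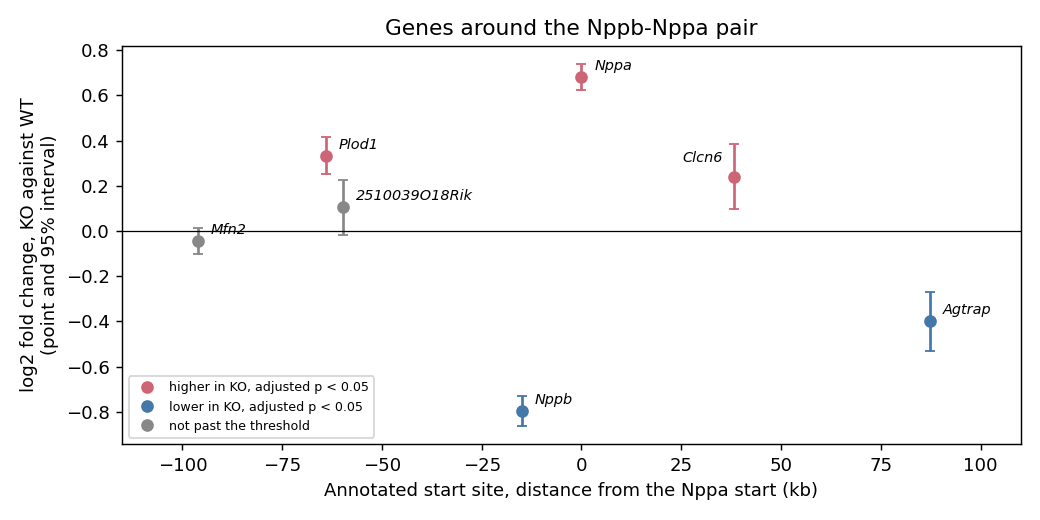
Log2 fold change of KO against WT (vertical axis, 95% interval) against the distance of each gene's annotated start from the *Nppa* start in kb (horizontal axis). *Nppb*, 14.9 kb upstream, lies at -0.80 and *Nppa* at 0.68, and the 5 neighbours shown lie between -0.40 and 0.33.

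The transcripts whose pattern over the 6 libraries was most like that of *Nppa*, by Pearson's r of log2 CPM among genes of at least 1 CPM, were *Kdm6a* (0.9998), *Xist* (0.999), *Kctd21* (0.999), *Egln3* (0.9988) and *Ppp1r3b* (0.9985). Those most like *Nppb* were *Tob2* (0.9998), *Kdm5d* (0.9995), *Gem* (0.9995), *Cyp51* (0.9992) and *Uty* (0.9991). The 6 libraries form 2 separate groups and share their depth and scaling, so these values are set largely by the gap between the genotypes relative to the spread within them. *Kdm6a* and *Xist* are X-linked and *Kdm5d* and *Uty* Y-linked.

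GENCODE M21 lists a gene of the antisense class overlapping 5 of the 7 genes (*Nppa*, *Npr1*, *Npr2*, *Corin* and *Furin*). *Npr3* is also overlapped by a gene on the opposite strand, listed as a bidirectional-promoter long noncoding RNA. Whether reads were counted by strand was not given in the sources used here, so reads of such pairs may not have been told apart.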

How the data were processed

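Total RNA of 3 WT and 3 *Pkm1*-KO hearts was depleted of ribosomal RNA and sequenced as paired ends. Per the labels and the study's methods, reads were aligned to mm10 with HISAT2 and transcripts assembled with StringTie (cutadapt 1.18 is also named in the submitters' processing notes). The counting program was not given in the sources used here. The deposited values are raw counts for each gene symbol, 1 column per library. Columns of the authors' own KO against WT comparison (log2 fold change, mean expression as log2 CPM, p-value, FDR) were deposited beside them and were not used.

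Tests were run with edgeR 4.0.16 under R 4.3.3, using filterByExpr (13804 of 13809 genes kept), TMM scaling and the quasi-likelihood F test with genotype as the only term, adjusted by Benjamini-Hochberg over all genes tested. No gene of the count table had under 59 counts in total, so the filter, or its omission, could change little. Shares of all genes refer to this set, which lacks genes of lower counts. A gene was called at an adjusted p under 0.05. Fits were tested on simulated counts: of 200 genes changed by 1.5-fold among 13802, 175 (87.5%) were recovered with 8 false calls. In the data 4179 genes were called, of which 855 reached 1.5-fold. The simulation therefore does not cover smaller changes or so large a share of changed genes. CPM per kb used the union of GENCODE M21 exons, which joins 1 transcript each for *Nppa* and *Nppb* and 5 to 10 for the other members tested. Other lengths were not tried, so the order of genes close on this scale, such as the receptors, may depend on that choice. The study names 3 biological replicates of each genotype. Whether each library came from a single embryo or a pool was not given in the sources used here. Labels do not tie libraries to litters either, so p-values measure only the spread between these 3 libraries of each genotype. Intervals and floors cover counting error and the spread between libraries only. Named genes were the members, genes of the lists, genes within 100 kb of *Nppa* or *Nppb*, and the 5 genes most like each peptide. A few genes of the lists and of that region are not reported here. The members and lists were chosen with earlier results of these data known. Alternatives were RLE size factors, DESeq2 1.42.0, edgeR's exact test, limma 3.58.1 (voom), no filter, at least 10 counts in every library, X and Y genes left out, WT a and WT b summed, each library left out, and 0.5 counts added in the ratios. Figures used matplotlib 3.10.9.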

Additional observations from a re-analysis of the deposited data

How the results depend on the processing

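No paired analysis was possible because no column of counts is numbered by replicate. Over 14 alternatives the log2 fold change was 0.67 to 0.69 for *Nppa*, -0.82 to -0.79 for *Nppb* and -0.25 to -0.17 for *Furin*, always past the threshold, with the extremes from leaving out 1 library. With edgeR's exact test or at least 10 counts in every library, 2 members were higher in place of 1, the second being *Npr3* (log2 fold change 0.106 and 0.109, adjusted p = 0.0387 and 0.04996). With each library left out, *Npr3* ranged from 0.1001 to 0.113, *Corin* from -0.0854 (without WT c, past the threshold) to -0.0575, *Npr1* from -0.117 to -0.0262, and *Npr2* from -0.00162 (without KO a, adjusted p = 0.991 by edgeR, 0.209 to 0.991 over all alternatives) to 0.116. Members lower in KO numbered 2 or 3, and members higher 1, in those fits. The cause was not tested. Genes lower in KO numbered 1639 to 2306 and genes higher 1362 to 2165. The difference in log2 ratio ranged from 1.46 to 1.49 for *Nppa* to *Nppb* and from 0.136 to 0.233 for *Npr3* to *Npr1*. The exact permutation p was 0.1 to 0.2 in these, and cannot fall below 0.1 with 2 libraries against 3.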

Other observations

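Other cell types of the heart were followed by short marker lists, where 14.6% of all genes tested were higher and 15.7% lower (edgeR). Of 5 epicardial markers, *Wt1* and *Upk3b* rose by 0.34 and 0.26 on the log2 scale in KO hearts (adjusted p = 1.19e-04 and 0.0171 by edgeR, with *Upk3b* at 0.0668 by DESeq2), and the remaining 3 did not pass. Their summed level was 115 to 118 CPM in WT and 127 to 142 CPM in KO. Of 6 immune markers, 0 passed by the edgeR fit, 1 was higher at an unadjusted p under 0.05 and DESeq2 called 0, with sums of 52.8 to 55.7 CPM in WT and 53.0 to 61.9 CPM in KO. *Alas2*, the heme synthesis enzyme of red cells, rose with 0.30 on the log2 scale. The other erythroid genes were not analysed here.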
